A study of Mus musculus with 3 samples.

Results

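The angiopoietin and Tie system was followed in endothelium sorted from glomeruli, the filtering capillary tufts of the kidney, of adult mice. It comprised 6 genes, namely the receptors Tek and Tie1, the phosphatase gene Ptprb and the ligands Angpt1, Angpt2 and Angpt4. They were taken by symbol from the platform annotation, keeping probe sets that name a single gene, and each of the 6 was represented by 1 probe set among the 21789 that do so. Glomerular endothelial cells (GEC) came from adult Tie2-GFP transgenic mice of mixed, mainly CD-1, background, in which the promoter of Tek (also called Tie2) drives green fluorescent protein. Glomeruli were sieved from the kidney cortex, dissociated, and the fluorescent cells were sorted. There were 3 arrays (replicates 1, 3 and 5), each from 1 kidney, and no other group, so each gene could be set only against a fixed signal. That detection level was 100, the number the study used to filter raw signals, or 6.64 on the log2 scale of the deposited values. The sex of the mice was not recorded. Fluorescence from a Tek promoter transgene decided which cells were collected, so the level of Tek may in part reflect the gate. How far it does was not tested.

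TEK is a receptor tyrosine kinase of endothelium. Angiopoietin 1, released mainly by cells beside the vessel such as pericytes, mesangial cells and podocytes, activates it, and the signal runs through PI3 kinase and AKT, which holds the transcription factor FOXO1 out of the nucleus and keeps the vessel quiescent. Angiopoietin 2 is made by endothelium itself, is kept in its storage granules, and can block or weakly activate the same receptor. The protein encoded by Angpt4 is a further ligand of TEK. TIE1 has no ligand of its own that is generally accepted, and tunes TEK by pairing with it, and PTPRB (VE-PTP) removes phosphate from TEK and binds VE-cadherin at cell junctions.

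Of these genes, Tek, Tie1 and Angpt4 had a promoter in the RefSeq table of assembly GRCm38.p6, covering 250 bases before and 50 after an annotated transcript start. The promoter of Tek lies at chr4:94739039-94739338 (plus strand), that of Tie1 at chr4:118489800-118490099 (minus strand) and that of Angpt4 at chr2:151910957-151911256 (plus strand). They are shown because a promoter of Tek drives the reporter. The sources used here do not say whether the transgene holds this stretch of Tek. The windows also cover both receptors, which were above the detection level, and a ligand that was not. Each is written 5′ to 3′ in the direction of its gene, and capitals mark GGAA on either strand (TTCC on the other), the core of sites bound by ETS transcription factors.
Tek: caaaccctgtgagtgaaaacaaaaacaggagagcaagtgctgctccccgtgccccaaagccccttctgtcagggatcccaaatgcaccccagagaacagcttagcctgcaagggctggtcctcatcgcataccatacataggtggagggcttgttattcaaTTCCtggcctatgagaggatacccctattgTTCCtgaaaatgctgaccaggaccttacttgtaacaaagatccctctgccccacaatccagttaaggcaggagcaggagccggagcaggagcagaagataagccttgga
Tie1: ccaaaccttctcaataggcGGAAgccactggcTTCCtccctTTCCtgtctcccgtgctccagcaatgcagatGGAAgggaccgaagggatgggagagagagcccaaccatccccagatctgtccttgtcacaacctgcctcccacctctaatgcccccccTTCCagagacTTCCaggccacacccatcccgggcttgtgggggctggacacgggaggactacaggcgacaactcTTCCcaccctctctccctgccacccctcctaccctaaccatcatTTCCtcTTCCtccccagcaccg
Angpt4: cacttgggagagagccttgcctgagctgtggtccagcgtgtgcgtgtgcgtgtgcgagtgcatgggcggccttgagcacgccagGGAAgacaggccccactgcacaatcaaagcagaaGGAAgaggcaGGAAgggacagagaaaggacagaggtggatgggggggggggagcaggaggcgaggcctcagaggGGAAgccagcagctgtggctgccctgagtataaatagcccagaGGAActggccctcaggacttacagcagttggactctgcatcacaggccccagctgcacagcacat

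The core GGAA was found 2 times in the Tek window, 9 times in the Tie1 window and 5 times in the Angpt4 window, counting both strands. It is common, being present in 96% of the 32851 promoters of the table with a median of 3 matches, while 1.59% of promoters held 9 or more. Both matches in Tek were part of the longer CAGGAA, which contains GGAA. Tie1 and Angpt4 held 1 CAGGAA each, and 30.6% of promoters held at least 1. The GATA-type motif AGATAA was found 1 time in the Tek window, after the transcript start, and not in the other windows, against 11.2% of all promoters. The forkhead motif GTAAACA and the hypoxia motif ACGTG were found in none of the 3 windows, on either strand, while 3.65% and 19.6% of all promoters held them. These matches describe letters only and say nothing of what is bound.

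The receptors were both above the detection level. Tek had log2 signals of 11.00, 10.18 and 10.77 on replicates 1, 3 and 5. All 3 arrays were far above the level, and replicate 3 was the low one. The mean of 10.65 ± 0.43 (SD, n = 3) lay 4.01 log2 above the level, with a 95% interval from 3.43 to 4.58 (adjusted p = 0.000116, limma). On the linear scale the mean corresponds to a signal of 1606.

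Tie1, the partner of TEK, had 7.60, 7.60 and 7.69 on replicates 1, 3 and 5. The arrays were close to each other and all above the level. Its mean of 7.63 ± 0.05 (SD, n = 3) was 0.99 log2 above the level, with an interval from 0.66 to 1.32 (adjusted p = 0.00163, limma). The linear mean was 198, so the call depends on where the level is set, and against a level of 200 the difference was -0.0121 (adjusted p = 0.927). Signals of different probe sets are not on a common scale of transcript number, and whether GEC hold fewer transcripts of Tie1 than of Tek was not tested.

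Ptprb, whose product restrains TEK, was also above the detection level on every array. Its log2 signals were 11.29, 11.29 and 11.50 on replicates 1, 3 and 5. Replicate 5 was the high one, and replicates 1 and 3 had the same value. The mean of 11.36 ± 0.12 (SD, n = 3) lay 4.72 log2 above the level, with an interval from 4.36 to 5.07 (adjusted p = 6.88e-05, limma), and corresponds to a linear signal of 2629. The promoter of Ptprb did not drive the reporter, but what the sort did to its level was not tested either.

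All 3 ligands were below the detection level. Angpt1, the activating ligand, had 3.43, 3.48 and 3.43 on replicates 1, 3 and 5. Its mean of 3.45 ± 0.03 (SD, n = 3) differed from the level by -3.20, with an interval from -3.53 to -2.87 (adjusted p = 6.90e-05, limma). No array stood apart, and the signal was of the size seen for olfactory receptor genes, which most cells outside the nose do not use. Of 1035 olfactory receptor probe sets, 463 (44.7%) had a higher mean than Angpt1.

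Angpt2, the ligand that endothelium itself can make, had 4.80, 4.80 and 4.64 on replicates 1, 3 and 5. The arrays spanned 0.16 log2, with replicate 5 lowest. The mean of 4.74 ± 0.09 (SD, n = 3) differed from the level by -1.90, with an interval from -2.24 to -1.56 (adjusted p = 0.000208, limma). Among olfactory receptor probe sets, 62 (5.99%) were higher. Measured against their 95th percentile, a log2 signal of 4.85, the difference of Angpt2 was -0.11 and was not called (adjusted p = 0.441, limma). That level is the upper edge of genes taken as silent, whose median was 3.33. The missing call therefore does not show that Angpt2 is silent. In the RefSeq annotation Angpt2 lies within the span of another gene, Mcph1, whose own probe set had 5.22 on each array.

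Angpt4 had 4.42 on each array. Its difference from the level was -2.22, with an interval from -2.55 to -1.90 (adjusted p = 0.000119, limma), and 111 olfactory receptor probe sets (10.7%) were higher. An SD of 0 here is a property of the deposited values and not a sign of exact measurement, since 54.1% of the tested probe sets had an identical value on all 3 arrays. The interval and p-value of Angpt4 thus rest on a variance taken from other probe sets. Those of Tie1, Ptprb, Angpt1 and Angpt2 rest mostly on it too, since their SDs were well below the SD of 0.288 it assumes. Angpt4 shared its exact values on all arrays with 148 other probe sets. Of the 6 genes, only Tek had a different value on each array, and Tie1, Ptprb, Angpt1 and Angpt2 had the same value on a pair of arrays.

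**Figure D1:**
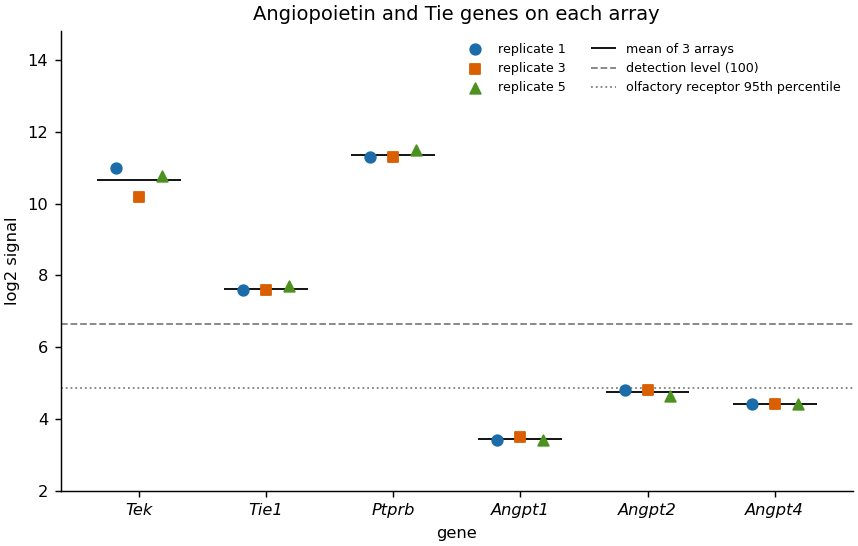
Log2 signal of the 6 genes (y axis) on replicates 1, 3 and 5 (symbols), with the mean of the 3 arrays as a bar, the detection level of 100 as a dashed line and the olfactory receptor level (their 95th percentile) as a dotted line. Tek, Tie1 and Ptprb lie above the dashed line on every array, and Angpt1, Angpt2 and Angpt4 lie below the dotted one.

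Of the 6 genes, 3 were called above the level (Tek, Tie1 and Ptprb) and 3 below it (the angiopoietins), and none was left uncalled. Over all 21789 probe sets tested, 15.8% were called above and 72.5% below. The median of the 6 means was 6.19, against a median of 5.04 over all tested probe sets, but no gene of the system lay near it. Among all tested probe sets, Ptprb was at percentile 99.3 of the mean signal, Tek at 98.4 and Tie1 at 88.6, while Angpt2 was at 42.8, Angpt4 at 34.7 and Angpt1 at 13.6. A percentile places a signal within the table and is not an amount of transcript. A gene called below 100 is not thereby shown to be silent, because the level decides the call.

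**Figure D2:**
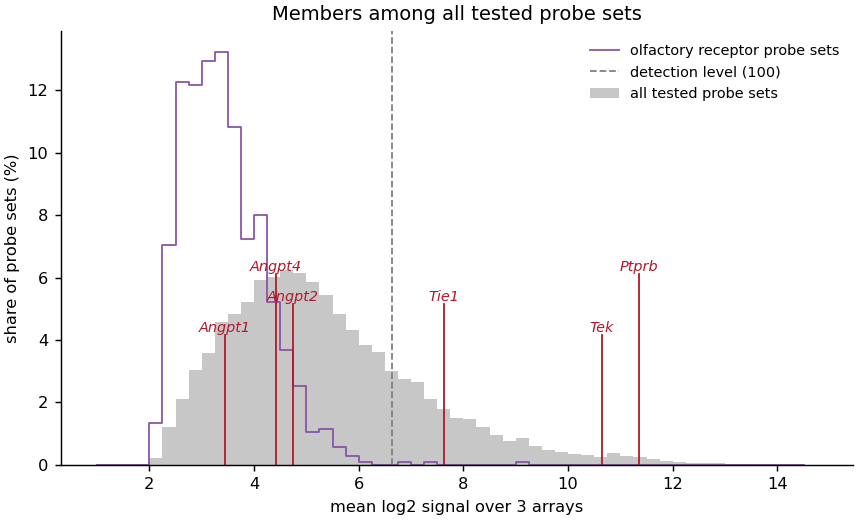
Share of probe sets (y axis, %) by mean log2 signal over the 3 arrays (x axis), for all 21789 tested probe sets (grey) and for 1035 olfactory receptor probe sets (line), with the 6 genes marked in red and the detection level dashed. The angiopoietins fall at 3.45 to 4.74, within the range of olfactory receptors, and Tek and Ptprb at 10.65 and 11.36, in the upper tail.

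The arrays differed most for Tek. Its highest and lowest arrays were 0.82 log2 apart, a range exceeded by 7.77% of all tested probe sets and by 16% of the 282 probe sets within 0.5 log2 of its mean. The range of Ptprb was 0.22, and 61.4% of the 207 probe sets of like signal had a wider one. Tie1 spanned 0.09, with 61.5% of 1588 like probe sets wider. Angpt2 spanned 0.16, with 17.4% of 5252 like probe sets wider, and Angpt1 0.06, with 20.1% of 4007 wider. For their signal these shares are close to that of Tek, but 66.8% and 74.3% of those like probe sets had the same value on all arrays.

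Tek was lowest on replicate 3, and endothelial markers often were as well. Of 10 such markers, 7 were lowest on replicate 3 and 3 on replicate 1, and their mean log2 signal was 10.20, 9.80 and 10.50 on replicates 1, 3 and 5. The widest ranges were those of Kdr, the main VEGF receptor, with 10.83, 9.53 and 11.18, and Ehd3, with 10.60, 9.51 and 11.00. Ehd3 is an endocytic recycling gene known in glomerular endothelium. The 3 lowest on replicate 1 were Eng (8.91, 9.31 and 9.96), Icam2 (9.14, 9.16 and 9.62) and Erg (8.49, 8.64 and 8.65). All 10 markers were highest on replicate 5, as were Tie1 and Ptprb, whereas Tek was highest on replicate 1. Among the 4090 probe sets whose signal reached 100 on every array, 26.3% were lowest on replicate 3 alone, but replicate 3 was also the array most often highest alone, with 22.5% against 20.8% for replicate 5 and 17.1% for replicate 1. With 1 array per kidney, fewer endothelial cells and less RNA per cell cannot be told apart, and what set the arrays apart was not tested. Without replicate 3 the difference of Tek from the level was 4.24, and without replicate 1 it was 3.83, both called above.

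The genes whose deviations over the 3 arrays were most like those of Tek were Trim30a, Psmb7 and Man2a1, with a root mean square distance of 0.022 to 0.023 log2. Trim30a, an interferon-inducible gene, had 9.43, 8.63 and 9.25 on replicates 1, 3 and 5, the proteasome subunit gene Psmb7 had 8.41, 7.63 and 8.17, and Man2a1, a mannosidase gene of the Golgi, had 8.78, 7.95 and 8.50. Likeness over 3 arrays is weak: 64 of 4089 probe sets (1.57%) lay within 0.1 of Tek, and 625 (15.3%) within 0.1 of Ptprb. For Ptprb the nearest were the respiratory chain gene Uqcrb, Txndc9 and the calcineurin gene Ppp3cb.

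**Figure D3:**
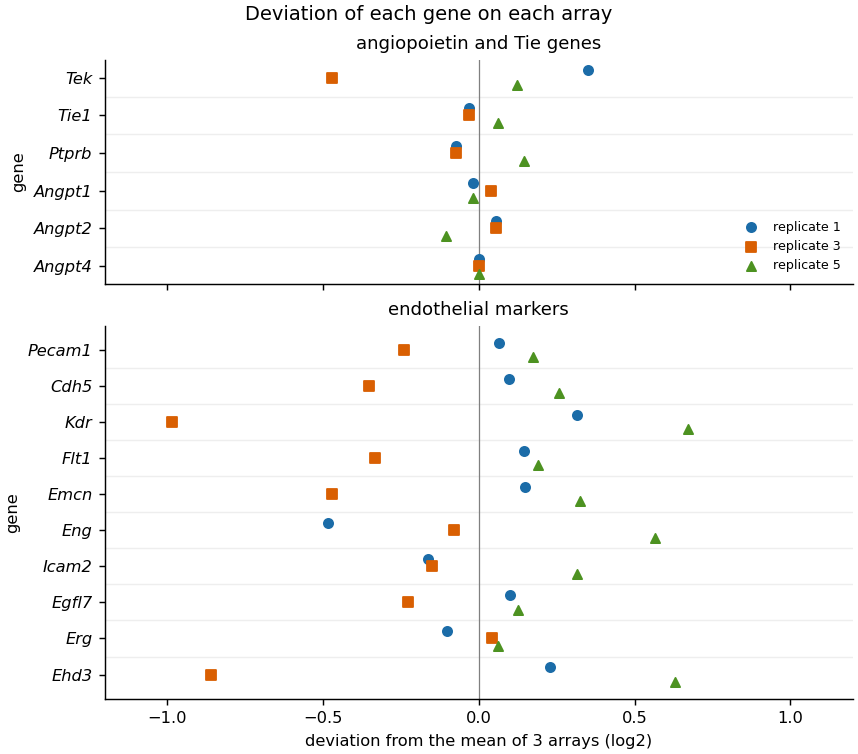
Deviation of each gene from its own mean over the 3 arrays (x axis, log2) on replicates 1, 3 and 5 (symbols), for the 6 genes (upper panel) and for 10 endothelial markers (lower panel). Replicate 3 is the lowest array for Tek and for 7 of the markers, and replicate 5 is the highest for Tie1, Ptprb and all 10 markers.

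Genes that carry the TEK signal inside the cell were split around the detection level. Of 25 listed, 21 were measured, with 6 called above, 8 below and 7 neither, and a median of 6.62, against 15.8% above and 72.5% below over all tested probe sets. These counts turn on the level: 18 were above, none below and 3 neither at the olfactory receptor level, and 4 above, 15 below and 2 neither at 200. Foxo1, the transcription factor that AKT restrains, had 7.98 on each array (adjusted p = 0.000546, limma). Pik3r1, a regulatory subunit of PI3 kinase, had 7.34 on each array and was also called above. Nck1, an adaptor to the actin cytoskeleton, was above with 9.19, 8.07 and 9.10 on replicates 1, 3 and 5, low on replicate 3 like Tek. The others above were Rasa1, Rhoa and Rac1, named after their values were seen.

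Several other genes of the signalling list were not called above 100. Akt1 had 6.21, 5.59 and 6.22 on replicates 1, 3 and 5 and was called below (adjusted p = 0.0314), a call that limma's own variance prior did not make (adjusted p = 0.0942). Ptpn11, a phosphatase that docks on activated TEK, was called neither at 6.92 on each array (adjusted p = 0.0862). It was called above with limma's own variance prior, with the arrays centred (adjusted p = 0.00131) and at the olfactory receptor level (adjusted p = 0.000354), and below at 200 (adjusted p = 0.00415). With the same value on all arrays, its calls under that prior and with centring reflect the assumed variance, not a measured spread. Below the level were the adaptor genes Dok2 at 5.07, Grb7 at 4.58 and Grb14 at 4.67, each with the same value on all arrays. Grb2, at 6.25 ± 0.13 (SD, n = 3), was called below, and the call was lost without any 1 of the replicates (adjusted p = 0.0552 to 0.0592). Dok2, Grb7, Grb14 and Grb2 follow the first 4 genes of the list, and were picked out after their values were seen.

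Partners of TEK and PTPRB at the cell surface were partly above the level. Of 8 measured, 4 were called above, 3 below and 1 neither, with a median of 7.32. Over all tested probe sets 15.8% were above and 72.5% below. Cdh5 encodes VE-cadherin, which binds PTPRB, and had 10.85, 10.40 and 11.01 on replicates 1, 3 and 5. Kdr was above as well, and so was Jup, the gene of plakoglobin, named after its value was seen, at 8.24 ± 0.29 (SD, n = 3). Itgb1, the integrin chain shared by most matrix receptors, was above at 10.81 ± 0.08 (SD, n = 3), while its partner Itga5 was called neither at 6.39 on each array. Itga5 was called below with limma's own variance prior, with the arrays centred (adjusted p = 0.00166) and at 200, and above at the olfactory receptor level (adjusted p = 0.000643). As for Ptpn11, the calls under that prior and with centring reflect the assumed variance.

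Transcription factors that are known to act on Tek or angiopoietin genes were above in 3 of 7 cases, below in 1 and neither in 3, with a median of 6.87. The shares over all tested probe sets were 15.8% above and 72.5% below. Epas1, a hypoxia-inducible factor of endothelium, had 10.71, 10.93 and 10.71 on replicates 1, 3 and 5. The ETS factor genes Ets1 at 7.81 on each array and Elf1 at 7.50 ± 0.03 (SD, n = 3) were above, and Elf2 at 6.72 ± 0.05 (SD, n = 3) was called neither, but above with the arrays centred (adjusted p = 0.0415). All 5 FOXO1 target genes listed were below, with a median of 5.21, where 72.5% of all tested probe sets were below as well. At the olfactory receptor level 2 of them, Cited2 and Irs2, were above and none below. Ccng2, a cyclin gene, was at 5.21 and Bcl6, a repressor gene, at 4.85 on each array, Cited2 at 5.92 ± 0.11 (SD, n = 3) and the insulin receptor substrate gene Irs2 at 5.53.

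Relatives of the members by sequence were not above the level. Of the 4 receptor phosphatase genes related to Ptprb, 3 were called below and 1 neither, with a median of 4.17. Most tested probe sets (72.5%) were below as well. Ptpro, known from podocytes, was at 3.93, Ptprh at 4.10 and Ptprq at 4.24, each on all arrays. Ptprj had 5.28, 7.82 and 5.20 on replicates 1, 3 and 5, so replicate 3 alone was above the level, and its second probe set ran the same way with 4.94, 7.64 and 4.40. Without replicate 3, Ptprj was called below at 5.24 (adjusted p = 0.000676). The angiopoietin-like genes share the fibrinogen-like fold of the angiopoietins but are not regarded as TEK ligands. Of 6 listed, 4 were measured and all 4 were below, against 72.5% of all tested probe sets, with a median of 4.51, among them Angptl1 at 4.18 ± 0.30 (SD, n = 3) and Angptl4, an inhibitor of lipoprotein lipase, at 4.60 on each array. At the olfactory receptor level 1 of the 4 was above (Angptl6, named after its value was seen), 2 were below and 1 neither.

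**Figure D4:**
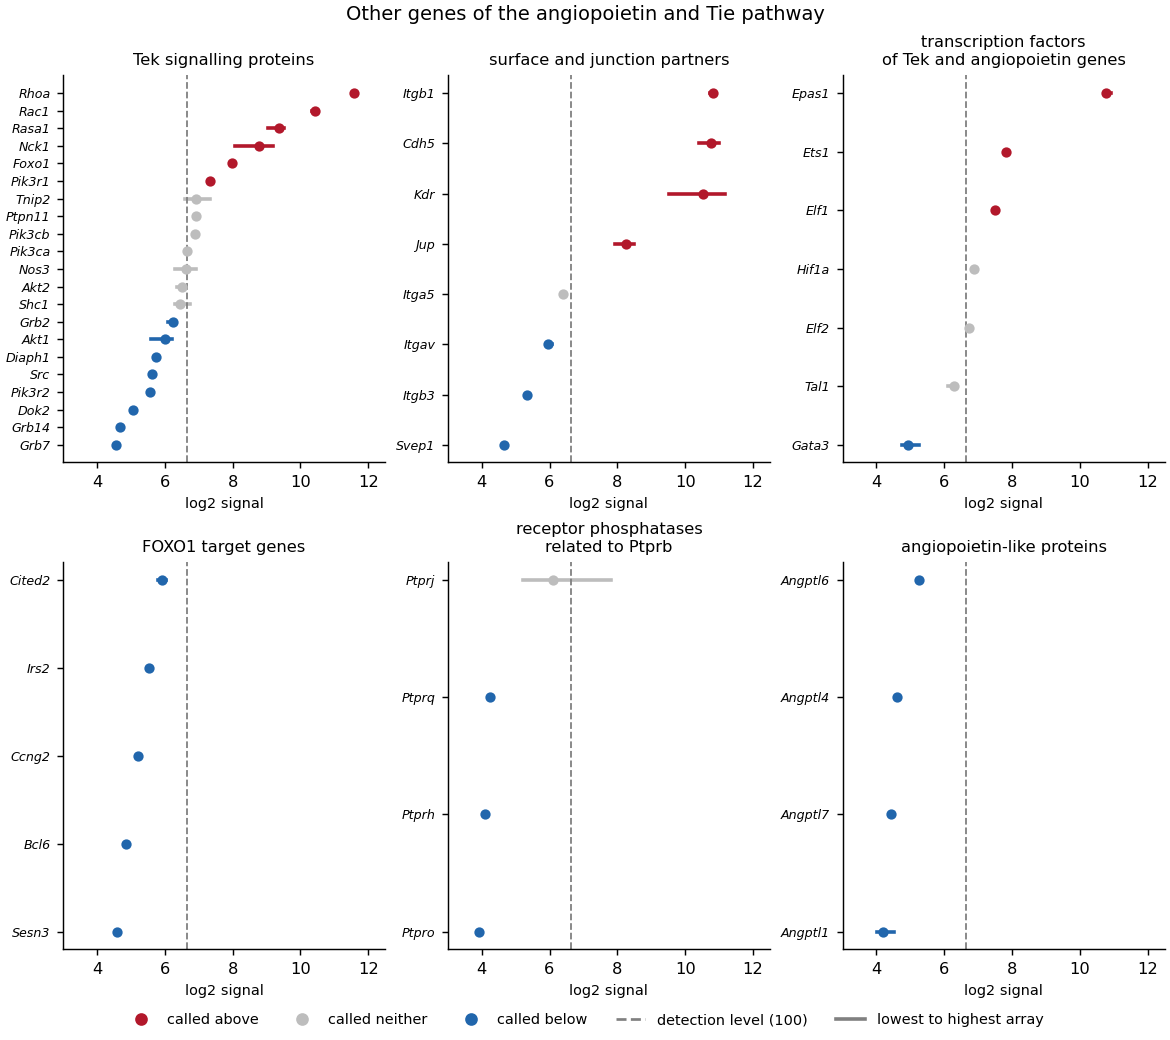
Mean log2 signal (x axis, points) with the span from the lowest to the highest array (bars) for genes of 6 lists around the angiopoietin and Tie system, coloured by their call against the detection level of 100 (dashed). The signalling list lies on both sides of the line, while all 5 FOXO1 targets and all 4 angiopoietin-like genes lie below it, and Ptprj has the widest bar.

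The label of the cells was checked against marker genes. All 10 endothelial markers were called above the level, with a median of 10.32, including Pecam1 at 10.26 ± 0.21, Cdh5 at 10.75 ± 0.32, Kdr at 10.51 ± 0.87 and Flt1 at 10.54 ± 0.29 (SD, n = 3 each). The rest of this list ran from Erg, an ETS factor gene, at 8.59 to the sialomucin gene Emcn at 12.54. Between them were Icam2 at 9.31, Eng at 9.39, Egfl7 at 9.41 and Ehd3 at 10.37. Over all tested probe sets 15.8% were called above.

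Most markers of cells known to make angiopoietin 1 were below the level. Of 5 podocyte genes measured, Nphs1 at 5.47, Synpo at 5.07 and Wt1 at 5.24 were called below, and Podxl at 9.86 and Cd2ap at 8.61, which endothelium can also express, above. The median of the 5 was 5.47, and their summed linear signal was between 1401 and 1494 on the 3 arrays. Most of that sum came from Podxl and Cd2ap. All 9 mesangial and mural genes were below, with a median of 4.77, from 4.22 for Pdgfrb to 5.40 for Notch3, and their summed linear signal was between 256 and 304. Over all tested probe sets, 72.5% were called below. At the olfactory receptor level 4 of the 5 podocyte genes were above and 1 neither. Of the 9 mesangial and mural genes, 2 were above, 2 below and 5 neither at that level. Itga8 had 6.08, 4.94 and 4.75 on replicates 1, 3 and 5, and Meis1 and Acta2 had 5.28 and 5.21 on each array. The call of Itga8 was lost without replicate 5 (adjusted p = 0.051) and with limma's own variance prior (adjusted p = 0.0819).

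Some monocytes carry TEK and platelets store angiopoietin 1, so markers of blood cells were read as well. For these lists too, 72.5% of all tested probe sets were called below. All 10 leukocyte genes were below, with a median of 4.65 and Ptprc at 4.77, Cd68 at 5.29, Csf1r at 4.24 and Itgam at 3.60, and their summed linear signal lay between 260 and 301. With limma's own variance prior, Cd14 among them was not called (adjusted p = 0.128). All 5 platelet genes were below, with a median of 5.01, among them Pf4 at 3.38, Itga2b at 5.01, Ppbp at 5.88 and Gp9 at 5.45, and their summed signal lay between 154 and 181. The call of Ppbp was lost with limma's own variance prior (adjusted p = 0.0718). The same held for 6 tubule genes, with a median of 4.95, Slc34a1 at 5.37, Lrp2 at 4.33, Umod at 5.15 and Slc12a1 at 3.56, and a summed signal between 174 and 183. These calls are against 100. At the olfactory receptor level, 4 of the 10 leukocyte genes, 2 of the 5 platelet genes and 2 of the 6 tubule genes were above. Below it were 4, 1 and 2. Cd68, Ppbp, Gp9 and Slc34a1 were among those above, as were Nphs1 and Wt1 of the podocyte list. What other cells contributed to the signals of the 6 genes was not tested.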

How the data were processed

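RNA of sorted GEC went through 1 round of amplification before hybridisation, on 3 Affymetrix Mouse Gene 1.0 ST arrays. Affymetrix Expression Console is named in the submitters' processing notes, with no version, and RMA in GeneSpring GX is named for the study's own analysis. The authors deposited log2 signals per probe set, from 1.39 to 14.40 with medians of 4.79 to 4.85. The sources used here do not say over which arrays RMA ran. Signals may therefore depend on arrays not analysed here, and the scale need not be that of the study's raw filter. The number of arrays limits the precision.

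Of 35557 probe sets, the 21789 that name 1 gene were tested with limma 3.58.1 in R 4.3.3, as an intercept-only fit of the mean against log2 of 100. The test was two-sided, p-values were adjusted over all of them by the Benjamini-Hochberg method, and the threshold was 0.05. Because 54.1% had the same value on all arrays, the variance prior was estimated on the 4406 that differed on each array (SD 0.288, with 2.03 degrees of freedom). The fit was tested on simulated data whose noise was drawn from that prior, so the prior itself was not tested. The simulation held no probe sets with the same value on only a pair of arrays, as Tie1 has. The p-values cover only the spread between these arrays, combined with that prior. For a probe set with the same value on all arrays, the p-value and interval rest on the prior. They rest mostly on it too where the SD is well below that of the prior, as for Tie1, Ptprb, Angpt1 and Angpt2. Symbols were matched by Entrez identifier to RefSeq (21698 matched, 91 did not, none changed). For genes with several probe sets the one with the highest mean was used, and genes with no probe set of their own are not analysed here.

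The members and lists were chosen with earlier results of these data known. Named by rule are all members, the first 4 genes of each list, pathway genes spanning over 1 log2 and markers called above. So are the 3 genes nearest to Tek and to Ptprb by root mean square distance of deviations, among those reaching 100 on every array. Other list genes, such as Notch3 and Cd14, are named outside this rule with their values known. The alternatives were limma's own variance prior, a level of 200 or the olfactory receptor level (their 95th percentile), centring the arrays, leaving out dim probe sets, testing all probe sets, and leaving out each replicate. Limma's own prior had an SD of 4.21e-16, so it gives a call to nearly any probe set with the same value on all arrays. Centring makes such values unequal, which brings these probe sets into the estimate of the prior.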

Additional observations from a re-analysis of the deposited data

How the results depend on the processing

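Of 51 values of the 6 genes under 9 alternatives, 49 kept their direction and their side of the threshold. The exceptions concern the level: against 200 the difference of Tie1 was -0.0121 (adjusted p = 0.927), and against the olfactory receptor level that of Angpt2 was -0.11 (adjusted p = 0.441), so that 2 genes were above and 3 below at 200, and 3 above and 2 below at the olfactory receptor level, against 3 and 3. Over all probe sets, the number called above was 3451, and 9680 at the olfactory receptor level and 1819 at 200. The number below was 15803, against 7889 at the olfactory receptor level, 25507 with all probe sets tested, where more were tested by construction, and 5667 with dim probe sets left out, where the angiopoietins were not tested. Leaving out each replicate gave differences of 3.83 to 4.24 for Tek, 0.96 to 1.00 for Tie1, 4.64 to 4.75 for Ptprb, -3.22 to -3.19 for Angpt1, -1.93 to -1.85 for Angpt2 and -2.22 for Angpt4, and 3245 to 3681 probe sets above. List counts moved with the level too: at the olfactory receptor level 7 of the 8 surface and junction partners and 6 of the 7 transcription factors were above and none below, and at 200 it was 4 and 1 above, and 4 and 4 below. No paired analysis was possible because there is only 1 group.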

Other observations

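The deposited values take few distinct steps, which bears on how exact the agreement of the arrays can be read. The 11791 tested probe sets with the same value on all arrays held 2489 distinct values, and 86.9% of them shared their value with another such probe set. The most frequent value, 4.17, was held by 194 probe sets. Among probe sets within 0.5 log2 of the mean of a gene of the system, identical values on all arrays made up 7.80% around Tek and 7.73% around Ptprb, but 25.7% around Tie1, 66.8% around Angpt2, 70.9% around Angpt4 and 74.3% around Angpt1. The SDs of the angiopoietins are thus those of a part of the table where most SDs are 0.

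The 2 probe sets of Ptprj, a receptor phosphatase gene of the same class as Ptprb, were both high on replicate 3 (7.82 and 7.64) and low on replicate 1 (5.28 and 4.94) and replicate 5 (5.20 and 4.40). Ptprb was not high on that array.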
